A study of Homo sapiens with 4 samples.

Results

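The genes described are subunits of the oligosaccharyltransferase, 10 of the 28063 gene symbols in the count tables: OST4, DDOST, RPN1, RPN2, STT3A, STT3B, DAD1, OSTC, TUSC3 and MAGT1. OST4 was picked because it was among the largest falls in M3, so its change is given as a description without a test. The other 9 were picked as its partners in the complex. All 10 had enough reads to be tested. A further 3 genes, TMEM258, KRTCAP2 and MLEC, were added for context. MLEC encodes a lectin and is counted with the subunits below for context only.

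Poly(A) RNA was sequenced from KELLY, a human neuroblastoma cell line, in 2 groups of 2 libraries. Both groups received a lentiviral vector for FLAG-tagged IWS1, a partner of SPT6 in transcription elongation, and both were grown in 10% serum, selected with 1 ug/ml puromycin and taken at 50% confluency. One group expressed wild-type IWS1 (WT) and the other a form with the motif TIM3 disrupted (M3). TIMs are short motifs that bind TFIIS N-terminal domains (TNDs), and the comparison asks which RNA levels depend on this motif. IWS1 RNA was itself higher in M3, so the motif and the level of IWS1 cannot be told apart here. The labels do not say that the cells' own IWS1 was removed, and they name no separate cultures for the libraries. The p-values thus reflect library-to-library spread that could be technical.

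Oligosaccharyltransferase sits in the membrane of the endoplasmic reticulum and moves a preassembled glycan from a dolichol lipid onto asparagine residues of new proteins, the first step of N-glycosylation. The enzyme exists in alternative forms built on different catalytic subunits. The STT3A form is held at the translocon by OSTC and KRTCAP2 and acts while a protein enters the lumen. The STT3B form carries the oxidoreductase TUSC3 or MAGT1 and acts on sites that the first form missed. RPN1, RPN2, DDOST, DAD1, OST4 and TMEM258 belong to both forms.

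Gene reads ran from 12289685 to 20962372 per library. In a chi-square test of gene counts (divided by its degrees of freedom), the WT libraries were 22.4 from each other, against 4.45 for the M3 pair and 23.6 (WT 2 and M3 2) to 72.1 (WT 1 and M3 1) between groups, so WT library 1 stood apart. Reads outside annotated features made up 23.2% and 23.3% of the WT libraries and 25.6% and 27.5% of the M3 libraries. IWS1 itself was higher in M3, by 0.65 ± 0.12 on the log2 scale (SE; edgeR quasi-likelihood adjusted p = 0.0225, and 0.215 and 0.138 without M3 library 1 or 2). All 8 neuroblastoma markers checked were read at 101 CPM or more (counts per 1000000 reads, TMM-normalised). Each of the 8 was lower in both M3 libraries than in both WT libraries, 3 of them past the threshold, beside 34.1% and 6.63% of all tested genes, and their sum was 6023 to 6307 CPM in WT and 4915 to 4957 CPM in M3. Its part in the results was not tested. Of 10 markers of blood, endothelial, fibroblast, Schwann and epithelial cells, 3 had enough reads to be tested, S100B was at 0 in every library, and their summed level was 14.01 to 28.7 CPM in WT and 16.2 to 17.0 CPM in M3.

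OST4 encodes one of the smallest subunits, a short membrane peptide that stabilises the assembled complex. It lies on chromosome 2 (27070472 to 27071773, minus strand, GRCh38), and its main transcript has 3 exons and 561 nt. Its level was 98.4 and 81.1 CPM in WT libraries 1 and 2, from 1229 and 1707 reads. In M3 libraries 1 and 2 it was 30.9 and 36.9 CPM, from 396 and 520 reads. Both M3 libraries lay below both WT libraries, as they did for 34.1% of all tested genes. OST4 was chosen for its fall in these libraries, so a gap wider than the spread within either group carries no test. The log2 fold change was -1.40 ± 0.16 (SE), which is 2.64-fold lower. OST4 ranked 74 of 14141 tested genes counted from the largest fall, and 13 among genes of at least 5 CPM. The rank from the largest fall was 148 and 120 without WT library 1 or 2, 198 and 173 without M3 library 1 or 2, and 1654 of 20290 genes without a count filter. In bulk RNA, fewer cells that make a transcript and less of it per cell cannot be told apart.

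Some reads at OST4 cannot be assigned with certainty. Of its 719 exonic bases, 151 (21.0%) also belong to AGBL5, a gene of the opposite strand that encodes a carboxypeptidase acting on tubulin. AGBL5 was read at 140 and 127 CPM in WT against 112 and 120 CPM in M3, a log2 fold change of -0.20 ± 0.12 (edgeR adjusted p = 0.256, and 0.0167 without WT library 2). The ratio of OST4 to AGBL5 reads within a library was 0.706 and 0.636 in WT and 0.276 and 0.307 in M3. As OST4 was chosen for its fall, a lower ratio in M3 follows from that choice. The strand setting of the counting is not given, so the ratio cannot show how reads in the shared bases were assigned.

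**Figure D1:**
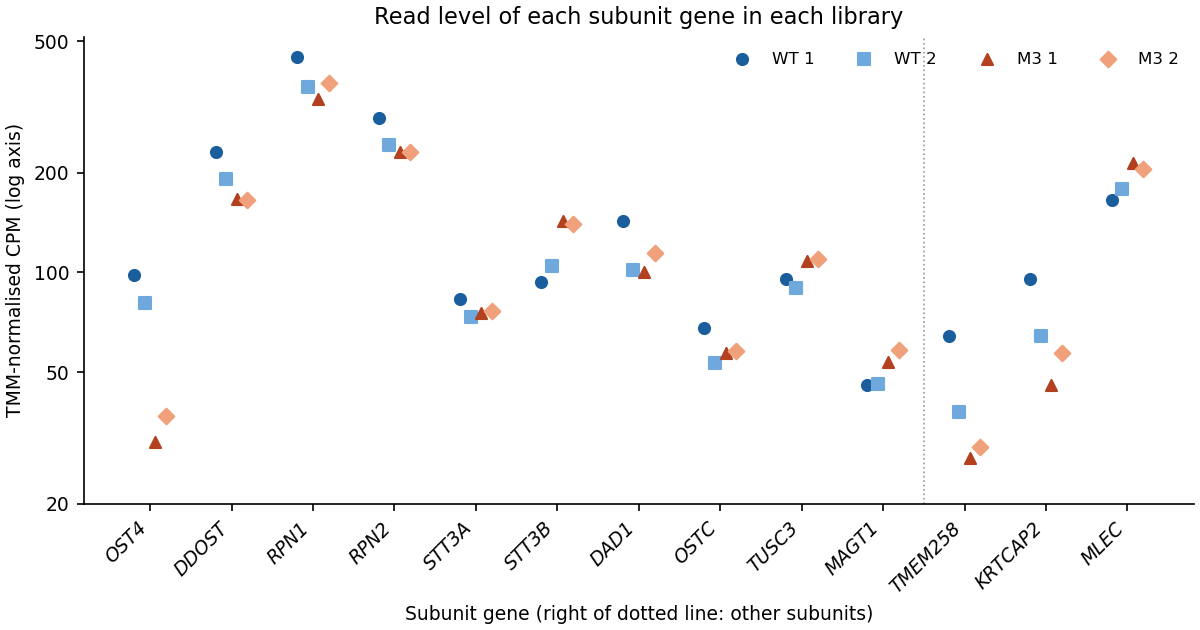
TMM-normalised CPM (log axis) of each of the 13 subunit genes, 1 point per library; WT libraries are blue and M3 libraries red or orange, and genes right of the dotted line are the 3 added subunits. OST4 is at 81.1 CPM or more in WT and 36.9 CPM or less in M3, while the 4 points of RPN1, STT3A, DAD1 and OSTC are mixed.

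The 250 bases before the RefSeq starts of OST4, TMEM258 and KRTCAP2 are shown because these 3 small subunits had the lowest fold changes of the complex. In GENCODE the 3 genes start further upstream, at 27071773, 61792802 and 155173475. Part of each window, marked cores included, thus lies inside the gene as annotated there. Capitals mark the core of ETS-family binding motifs, CCGGAA, on either strand (its reverse complement is TTCCGG).
OST4 (chr2:27071655-27071904, minus strand, GRCh38.p14): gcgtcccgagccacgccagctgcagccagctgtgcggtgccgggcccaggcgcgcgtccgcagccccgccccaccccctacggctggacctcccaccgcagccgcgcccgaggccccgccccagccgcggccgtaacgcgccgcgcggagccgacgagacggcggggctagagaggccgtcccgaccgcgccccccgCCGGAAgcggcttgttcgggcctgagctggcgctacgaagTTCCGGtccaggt
TMEM258 (chr11:61792600-61792849, minus strand, GRCh38.p14): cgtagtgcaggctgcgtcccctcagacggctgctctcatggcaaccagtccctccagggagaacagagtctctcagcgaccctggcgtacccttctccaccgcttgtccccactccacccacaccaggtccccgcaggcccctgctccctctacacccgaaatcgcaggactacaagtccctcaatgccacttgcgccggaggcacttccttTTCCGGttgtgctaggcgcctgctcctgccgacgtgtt
KRTCAP2 (chr1:155173305-155173554, minus strand, GRCh38.p14): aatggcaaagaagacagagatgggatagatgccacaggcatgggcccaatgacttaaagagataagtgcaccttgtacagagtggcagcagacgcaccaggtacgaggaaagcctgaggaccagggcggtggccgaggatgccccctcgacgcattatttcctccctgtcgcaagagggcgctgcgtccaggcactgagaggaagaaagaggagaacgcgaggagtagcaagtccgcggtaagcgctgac

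RefSeq start-site sequences were matched for 10 of the 13 subunits, and RPN1, STT3B and TUSC3 were not matched. The ETS core occurred 2 times before OST4, 3 times before DDOST and 1 time before TMEM258, and not before the other 7. It was found in 14.5% of 35116 start-site windows of the same length. None of the 10 held TATAAA, which 10.7% of all windows hold on either strand. A start on C followed by at least 4 further pyrimidines (C or T), a form that ribosomal protein transcripts often have, was annotated for TMEM258 and for 4.07% of all start sites. The start of OST4 is a C followed by fewer than 4 pyrimidines. A match describes letters and is not evidence of binding.

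Among the 10 members 1 gene was past the threshold upward and 1 downward: STT3B rose, and OST4 is the one that was chosen for its fall. Of all tested genes 15.8% passed, 9.16% upward and 6.63% downward (edgeR quasi-likelihood test, adjusted p below 0.05 over 14141 genes), and nothing is read from the OST4 call. The median log2 fold change of the 10 members was -0.13, beside -0.0065 for all tested genes. Both M3 libraries lay below both WT libraries for 3 members and above them for 3, beside 34.1% and 34.0% of all tested genes. The 1 upward call among 10 is near the background share.

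STT3B, the catalytic subunit of the form that works on missed sites, was at 93.7 and 105 CPM in WT against 143 and 140 CPM in M3. The groups did not overlap, and the log2 fold change was 0.51 ± 0.12 (edgeR adjusted p = 0.0326), a 1.42-fold rise. Its paralog STT3A, the catalytic subunit at the translocon, was at 83.4 and 73.4 CPM in WT against 75.3 and 76.7 CPM in M3. The M3 libraries lay inside the range of the WT pair, with a log2 fold change of -0.04 ± 0.13 (edgeR adjusted p = 0.838). The STT3B call was lost without M3 library 1 or 2 (edgeR adjusted p = 0.322 and 0.196) and in a fit with the length and GC trend removed, in which each library's dependence on transcript length and on GC content is taken out (0.24 ± 0.09, edgeR adjusted p = 0.122).

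The ratio of STT3A to STT3B reads within a library needs no scaling between libraries. For WT libraries 1 and 2 it was 0.891 and 0.699, and for the M3 libraries 0.528 and 0.547. Every M3 value was below every WT value, and on the log2 scale the means were -0.34 ± 0.25 in WT and -0.90 ± 0.03 in M3 (SD, n = 2), a difference of -0.55. The principal transcripts of this pair are of similar length, 4558 and 4248 nt, and their exonic bases are 7393 and 5012. The difference was -0.52 with the trend removed on transcript length and -0.61 on exonic bases. With 2 libraries a group the smallest p of an exact permutation test is 0.333, and such ratios are given untested.

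The oxidoreductases of the STT3B form, TUSC3 and MAGT1, were a little higher in M3 without passing the threshold. TUSC3 was at 95.9 and 89.8 CPM in WT against 108 and 110 CPM in M3 (log2 fold change 0.23 ± 0.12, edgeR adjusted p = 0.193). MAGT1 was at 45.6 and 46.0 CPM in WT against 53.8 and 58.4 CPM in M3 (0.29 ± 0.13, edgeR adjusted p = 0.139). In both genes the M3 pair lay above the WT pair. The log2 ratio of TUSC3 to MAGT1 reads was 1.07 and 0.96 in WT and 1.01 and 0.91 in M3, so these ranges overlapped. With the length and GC trend removed TUSC3 passed (0.39 ± 0.09, edgeR adjusted p = 0.0328) when 1 transcript of 1498 nt stood for the gene, and did not pass (0.18 ± 0.10, edgeR adjusted p = 0.290) when its 5190 exonic bases did. TUSC3 also passed without WT library 1 (edgeR adjusted p = 0.0411), and MAGT1 without WT library 2 (edgeR adjusted p = 0.0420). With the trend removed MAGT1 was at 0.012 ± 0.11 (edgeR adjusted p = 0.962), and at 0.076 ± 0.11 with exonic bases (0.692).

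**Figure D2:**
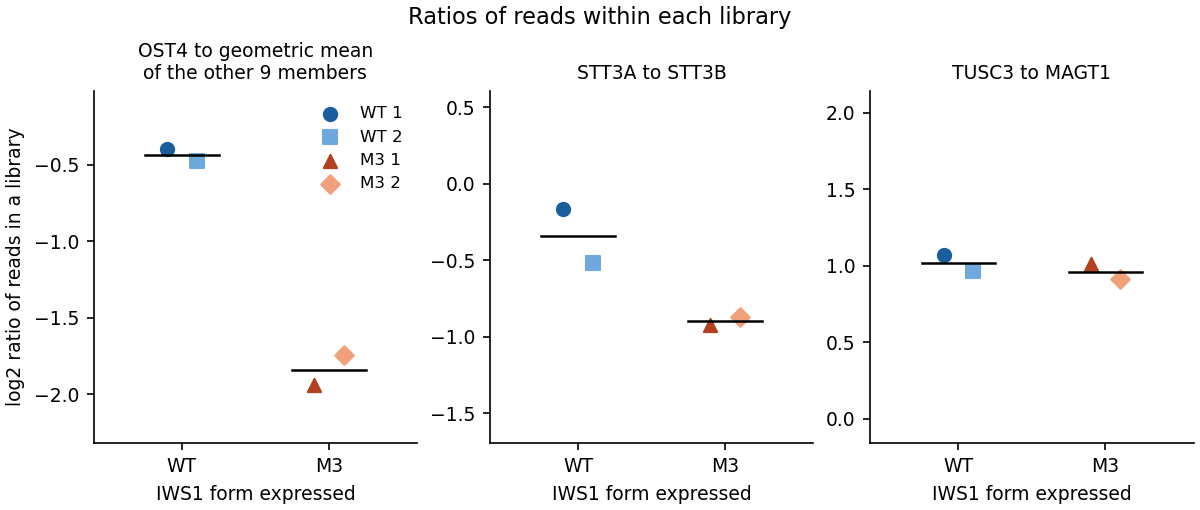
Log2 ratio of reads within each library, 1 point per library, with a black line at each group mean (n = 2) and axes of equal span: OST4 against the geometric mean of the other 9 members, STT3A against STT3B and TUSC3 against MAGT1. The groups are apart for OST4 and for STT3A to STT3B, and overlap for TUSC3 to MAGT1.

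None of the larger shared subunits passed the threshold. RPN1, the ribophorin that guides substrates to the catalytic site, was at 448 and 363 CPM in WT against 335 and 374 CPM in M3 (log2 fold change -0.19 ± 0.14, edgeR adjusted p = 0.356). RPN2, the second ribophorin, was at 293 and 243 CPM in WT against 232 and 232 CPM in M3 (-0.21 ± 0.13, edgeR adjusted p = 0.270). DDOST, a core subunit, was at 231 and 192 CPM in WT against 167 and 166 CPM in M3 (-0.34 ± 0.13, edgeR adjusted p = 0.0958). The M3 pair lay below the WT pair for RPN2 and DDOST, and overlapped it for RPN1. Without WT library 2, RPN1 (-0.34, edgeR adjusted p = 0.000998), RPN2 (-0.34, 0.000672) and DDOST (-0.48, 1.59e-06) passed. Without WT library 1 the 3 genes were at -0.041, -0.077 and -0.21, and with the length and GC trend removed at -0.070, -0.095 and -0.12, none of them past the threshold. Of the exonic bases of DDOST, 15.7% also belong to PINK1-AS, so its count is uncertain.

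DAD1 and OSTC are small subunits like OST4. DAD1, named as a defender against cell death, was at 143 and 101 CPM in WT against 100 and 115 CPM in M3 (log2 fold change -0.19 ± 0.17, edgeR adjusted p = 0.466). OSTC, which ties the STT3A form to the translocon, was at 68.2 and 53.3 CPM in WT against 57.0 and 58.0 CPM in M3 (-0.07 ± 0.15, edgeR adjusted p = 0.750). In both genes the groups overlapped and WT library 1 was the highest. DAD1 passed without WT library 2 (-0.42, edgeR adjusted p = 0.000127). OSTC has 6 annotated pseudogenes that can share its reads. The signs of STT3A, DAD1 and OSTC were not stable: STT3A and OSTC were at 0.077 and 0.049 with total-count scaling, and DAD1 was at 0.10 with the length and GC trend removed.

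Of the 2 small subunits outside the 10, TMEM258 fell and KRTCAP2 did not pass the threshold. TMEM258, a subunit of both forms, was at 64.4 and 37.9 CPM in WT against 27.6 and 29.7 CPM in M3 (log2 fold change -0.83 ± 0.23, edgeR adjusted p = 0.0451). KRTCAP2, the partner of OSTC in the STT3A form, was at 95.6 and 64.4 CPM in WT against 45.7 and 57.0 CPM in M3 (-0.63 ± 0.20, edgeR adjusted p = 0.0611). In both genes the M3 pair lay below the WT pair, and WT library 1 stood well above WT library 2. Without WT library 1 the log2 fold changes were -0.41 and -0.33, and without WT library 2 they were -1.17 and -0.90. TMEM258 lost the call without M3 library 1 (edgeR adjusted p = 0.108), with total-count scaling (0.0757), with limma-voom (0.0580) and in the fit without the length and GC trend (-0.49 ± 0.18, edgeR adjusted p = 0.141). In that fit KRTCAP2 was at -0.20 ± 0.13 (edgeR adjusted p = 0.387), and at -0.39 ± 0.16 with all exonic bases as the length (0.169). KRTCAP2 passed with edgeR on the replicate number as a block (adjusted p = 0.0200), without a count filter (0.000377), without WT library 1 (0.0190), WT library 2 (4.89e-14) or M3 library 2 (0.0436), and with DESeq2 (0.0180). Their counts are uncertain, since 20.6% and 18.4% of their exonic bases belong to other genes as well. MLEC, which encodes the lectin malectin, was at 165 and 179 CPM in WT against 214 and 205 CPM in M3 (0.28 ± 0.12, edgeR adjusted p = 0.116). MLEC passed without WT library 2 (0.34, edgeR adjusted p = 0.00136) and was at 0.048 (0.783) with the length and GC trend removed. Of its exonic bases 13.5% also belong to the antisense gene AC069234.2, so its count is uncertain.

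**Figure D3:**
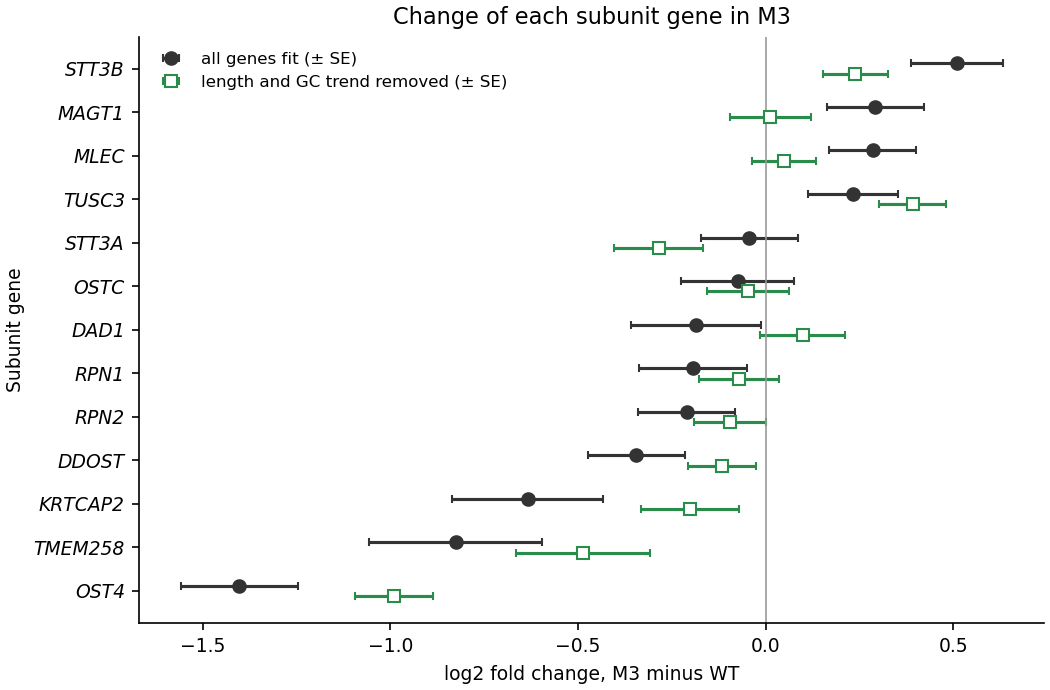
Log2 fold change (M3 minus WT) of each of the 13 subunit genes with its standard error; filled circles are the fit to all 14141 tested genes and open squares the fit with the length and GC trend removed. OST4 is the lowest gene in both, at -1.40 and -0.99, while STT3B at the top moves from 0.51 to 0.24.

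Set against each of the other 9 members within a library, OST4 had a lower ratio in M3 than in WT. Its reads were 0.761 and 0.720 of the geometric mean of those 9 members in the WT pair and 0.260 and 0.299 in the M3 pair. This ratio was 2.65-fold lower in M3, with log2 means of -0.43 ± 0.06 in WT and -1.84 ± 0.14 in M3 (SD, n = 2). Against single partners the difference in log2 ratio ran from -1.07 for DDOST to -1.92 for STT3B. With each library left out in turn, the difference from the 9 members stayed between -1.31 and -1.51. As OST4 was chosen on this contrast, these values describe the size of the gap and carry no test.

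Per kilobase of transcript OST4 was among the most abundant subunits in WT and in the middle of the complex in M3. The mean WT level was 175 CPM per kb for RPN1, 167 for DAD1, 160 for OST4 and 145 for KRTCAP2, and the WT ranges of neighbours in this order overlapped. RPN2, DDOST and TMEM258 followed at 107, 99.5 and 88.9 CPM per kb, also overlapping. TUSC3 (62.0 CPM per kb) and OSTC (56.4 CPM per kb) overlapped as well, and MLEC, STT3B, STT3A and MAGT1 were lowest, at 26.0, 23.4, 17.2 and 11.3 CPM per kb, without overlap among these 4. In M3 OST4 averaged 60.4 CPM per kb, below TUSC3 (72.8) and above OSTC (53.4), with no overlap to either. Its rank among the 13 subunits went from 3 to 7, while RPN1, DAD1, STT3A and MAGT1 kept ranks 1, 2, 12 and 13 by group mean. The order rests on 1 transcript per gene and was not computed on exonic bases. Transcript and exonic bases were 1498 and 5190 for TUSC3, 552 and 3826 for KRTCAP2, and 575 and 3068 for TMEM258, against 561 and 719 for OST4.

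Transcript length moved with the fold changes, in the complex and in all genes. Across the 13 subunits Spearman's rho of transcript length with log2 fold change was 0.75. OST4, chosen for its fall, is one of the 13 and the lowest of them, so this value is not free of that choice. Across 13702 tested genes with a transcript rho was 0.52. Genes share libraries and are not independent. The 3 lowest subunits have the shortest transcripts (552 to 575 nt), and next in length come DAD1 (731 nt) and OSTC (1077 nt). Of 232 tested genes with transcripts under 600 nt, 14.7% were called lower and 3.45% higher, with a median log2 fold change of -0.26. Of 630 genes from 600 to 1000 nt, 25.6% were called lower and 0.794% higher, with a median of -0.43. Of 4978 genes of 4000 nt or more, 1.10% were called lower and 20.5% higher, with a median of 0.28. OST4, at -1.40, was below the 10th percentile of the shortest class (-1.04), where 16 of 232 genes, OST4 included, were as low or lower. With the trend on length and GC content removed OST4 was at -0.99 ± 0.10. It then ranked 141 of 13702 genes from the lowest, and its difference from the 9 other members was -1.01. As OST4 was chosen for its fall, its place in the shortest class and its values with the trend removed are description only.

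**Figure D4:**
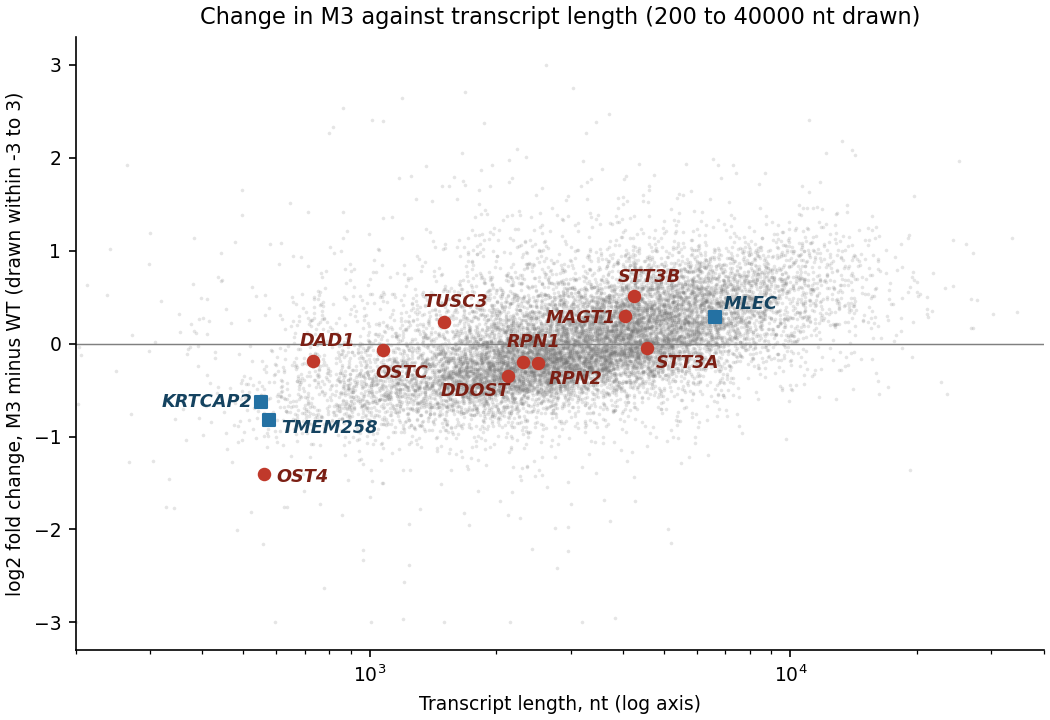
Log2 fold change (M3 minus WT) against transcript length (log axis) for tested genes in grey, with the 10 members as red circles and the 3 added subunits as blue squares. Fold changes of all genes go up with length (rho 0.52). OST4, chosen for its fall, lies below KRTCAP2 and TMEM258, whose principal transcripts are of like length. Their exonic bases, 3826 and 3068, are far more than the 719 of OST4.

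The genes whose levels across the 4 libraries were most like those of OST4 were not subunits of the complex. Likeness was the Euclidean distance between log2 CPM values centred on each gene's mean, over 4 libraries and 4527 candidate genes of at least 50 CPM. The nearest 5 were the small-subunit ribosomal protein gene RPS29 (distance 0.109), RNR1 (0.145), the ubiquitin-ribosomal protein fusion gene RPS27A (0.158), the nucleoside diphosphate kinase NME1 (0.212) and the snoRNA host gene SNHG6 (0.273). They were from 2.31-fold (SNHG6) to 2.83-fold (RPS27A) lower in M3. KRTCAP2 was the nearest subunit among the candidates, at rank 239, and STT3B was the farthest, at rank 3965. TMEM258, at a distance of 0.715, was under the 50 CPM needed. Genes chosen for being like OST4 share its direction by construction.

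Upstream of the transferase, 28 genes that build the lipid-linked glycan or its sugar donors were tested, of which 3 rose and 3 fell, with a median log2 fold change of -0.16 (all genes -0.0065). Of all tested genes 9.16% rose and 6.63% fell. ALG10 (1.29 ± 0.23, edgeR adjusted p = 0.0207) and ALG10B (1.22 ± 0.21, 0.0207), near-identical copies that add the last glucose, rose, so reads between them are uncertain, and 42.2% of the exonic bases of ALG10 also lie in an antisense gene. NUS1, a subunit of the enzyme that makes dolichol's precursor, rose by 0.67 ± 0.12 (edgeR adjusted p = 0.0215). DPM3, a small subunit of dolichol-phosphate mannose synthase with a transcript of 486 nt, fell by 0.89 ± 0.20 (edgeR adjusted p = 0.0291), with WT at 18.9 CPM or more and M3 at 12.5 CPM or less. MPI and GMPPA, which act in mannose supply, were at -0.75 ± 0.16 (edgeR adjusted p = 0.0279) and -0.57 ± 0.16 (0.0443). The count of MPI is uncertain, since 24.6% of its exonic bases also belong to FAM219B.

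Downstream, 15 genes of glycan trimming and glycoprotein folding included 2 that rose and 2 that fell (all tested genes 9.16% and 6.63%), with a median of 0.02. EDEM3, which trims mannose from misfolded glycoproteins (0.85 ± 0.17, edgeR adjusted p = 0.0255), and the cargo receptor LMAN1 (0.60 ± 0.13, 0.0292) rose. PRKCSH, the non-catalytic subunit of glucosidase II (-0.55 ± 0.15, edgeR adjusted p = 0.0413), and MOGS, glucosidase I (-0.46 ± 0.13, 0.0435), fell. Of 24 translocon, signal recognition and signal peptidase genes 4 rose and 2 fell (all tested genes 9.16% and 6.63%), with a median of -0.07. Among them SPCS3 (0.58 ± 0.12), TRAM1 (0.50 ± 0.13) and SEC62 (0.47 ± 0.11) rose, and SEC11A (-0.58 ± 0.15) and SSR2 (-0.57 ± 0.16) fell, with edgeR adjusted p from 0.0277 to 0.0435. The fourth that rose, SRP9 (0.44 ± 0.13, edgeR adjusted p = 0.0469), was named after its values were seen. It is not among the 19 named genes whose lost calls are counted below.

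Of 24 genes of the endoplasmic reticulum stress response 2 rose and 2 fell, with a median of -0.23. These 4 calls are near the 15.8% of all tested genes. Both M3 libraries lay below both WT libraries for 14 of the 24 and above them for 3. The shares of all tested genes were 34.1% and 34.0%, and this split was not tested. ATF4, the transcription factor of the integrated stress response, was at 393 and 375 CPM in WT against 198 and 241 CPM in M3 (-0.81 ± 0.13, edgeR adjusted p = 0.0204). Its target CHAC1 was at 9.77 and 6.18 CPM in WT against 2.18 and 3.90 CPM in M3 (-1.36 ± 0.34, edgeR adjusted p = 0.0361). SEL1L, an adaptor of the ER-associated degradation ligase (0.74 ± 0.19, edgeR adjusted p = 0.0374), and DNAJC3, a co-chaperone (0.47 ± 0.14, 0.0496), rose. Among the 19 genes named in these 4 groups the call was lost by 17 without M3 library 1, 12 without M3 library 2, 9 with total-count scaling and 14 with the length and GC trend removed, where 2 more, SEC62 (-0.21) and SPCS3 (-0.015), changed sign.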

How the data were processed

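Poly(A) RNA libraries (fragments of 200 to 400 bp) gave whole read counts per gene symbol, deposited by the authors without normalisation, 1 table per library. The submitters' processing notes name HISAT2 2.1.0, HTSeq, DESeq2 and hg38, with annotation and strand setting not given in the sources used here. Summary lines for unassigned reads stayed out of library sizes and tests: 23.2% to 27.5% of reads fell in no feature and 3.16% to 3.50% were ambiguous.

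All genes passing filterByExpr were fitted in edgeR 4.0.16 (R 4.3.3): TMM factors, robust quasi-likelihood fit, no covariates, Benjamini-Hochberg adjustment over 14141 genes, threshold 0.05. The standard error is the log2 fold change divided by the root of F. The common biological coefficient of variation was 0.124. On simulated counts with these depths, 82.2% of genes changed by 1 and 98.9% of those changed by 1.5 on the log2 scale were called. The simulated counts held no length or GC trend and no library that stood apart. Smaller changes were not simulated, so these shares do not bear on the uncalled members. DESeq2 1.42.0 and limma 3.58.1 (voom) were alternatives.

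Transcript length, GC content and exon overlaps came from GENCODE release 29 (GRCh38), 1 principal transcript per gene, for 96.9% of tested genes. The length and GC trend was a spline with 5 degrees of freedom for each, per library, entered as an offset. Promoters came from RefSeq (GRCh38.p14). Members and lists were chosen with earlier results of these data known. Named are all subunits, IWS1, the gene overlapping OST4, up to 3 called genes per direction and list (the 2 of highest CPM where none was called), and the 5 genes most like OST4.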

Additional observations from a re-analysis of the deposited data

Results flagged for a closer look

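The share of counted reads in no annotated feature, which enters none of the tests, was 3.31 percentage points higher in M3 than in WT on average, at 27.5% and 25.6% against 23.3% and 23.2%. Its part in the fold changes of the subunits was not tested.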

How the results depend on the processing

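OST4 kept its direction under all 17 alternative fits, between -0.99 and -1.54. These fits reuse the libraries in which OST4 was chosen for its fall, so its direction in them is no independent support. Its difference from the other 9 members was -1.01 with the length and GC trend removed, -1.01 with that and the replicate block, and -1.06 with the trend taken over all exonic bases. The 2 calls among the 10 members became 1 (OST4) with the trend over all exonic bases and 0 at an adjusted p below 0.01, where edgeR called no gene at all (0 of 14141; 5078 had an unadjusted p below 0.05). They ranged from 1 to 7 with a library left out. Without WT library 2 there were 7, and without M3 library 1 or 2 there was 1. Where a WT library is left out the spread comes from both M3 libraries alone, and the lone WT library is assumed to vary like them.

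The 2232 genes called became 1120 with total-count scaling (76.4% of them higher, beside 58.0% with TMM, and a median log2 fold change raised by 0.12), 3945 without a count filter, 681 with the length and GC trend removed (43.5% higher), 978 with that and the replicate block, 344 (39.0% higher) with the trend over all exonic bases, and from 359 to 6735 with a library left out. DESeq2 called 2635. The replicate numbers share nothing in the labels. The difference between libraries 1 and 2 in WT was only weakly related to that in M3 (correlation of -0.14 over tested genes). The block is thus only an alternative: it called 2315 genes and left the 2 calls among members. A crossed pairing, chosen like the exonic-base trend after seeing the data, called 5314 genes and 3 members.

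With the length and GC trend removed, the 6 calls in lipid-linked glycan synthesis became 2, the 4 in trimming and folding 0, the 6 in the translocon list 0 and the 4 in the stress list 1. They were 2, 0, 0 and 2 with the block added, and 2, 0, 0 and 0 with the exonic-base trend. With total-count scaling the last 3 lists had 2, 3 and 2 calls. The stress list had 11 without a count filter. Crossed pairing gave 12, 10 and 13 in the synthesis, trimming and stress lists. Leaving out a library gave from 2 to 15, 0 to 12, 0 to 15 and 0 to 16 calls in these 4 lists, always most without WT library 2.

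Signs turned for 3 uncalled members and 2 called genes. STT3A was at 0.077 with total-count scaling and from -0.14 to 0.044 with a WT library left out, and OSTC at 0.049 and from -0.25 to 0.10. DAD1 was at 0.10 with the trend removed, 0.11 with the block added, 0.024 with the exonic-base trend and from -0.42 to 0.075 with a WT library left out. SPCS3, called at 0.58, was at -0.015, -0.015 and -0.037 in those trend fits, and SEC62, called at 0.47, at -0.21, -0.21 and -0.14. The difference in the TUSC3 to MAGT1 log2 ratio, -0.06, became 0.38, 0.38 and 0.11. The cause was not tested.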
